A study of Mus musculus with 2 samples.

Results

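The basement membrane is the thin sheet of matrix on which endothelium lies and which wraps mural cells and muscle fibres. Laminin trimers of an alpha, a beta and a gamma chain form its first network, collagen IV forms a second, and nidogen and the heparan sulfate proteoglycan perlecan link them. Collagens XV and XVIII sit at its outer face and carry heparan or chondroitin sulfate chains. Described here are 10 genes of this sheet out of the 27998 in the tables: Col4a1 and Col4a2 (collagen IV chains), Col15a1 and Col18a1, Lama2 and Lama4 (laminin alpha chains), Lamb1 and Lamc1 (laminin beta-1 and gamma-1), Nid1 (nidogen-1) and Hspg2 (perlecan). They were chosen by symbol, with no measured value in the rule, and all 10 were found in both tables.

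The data are droplet 3' single-cell counts from the ventricles of 2 wild-type C57BL/6 mice aged 10 to 12 weeks, with 1 library per mouse and no treatment. Hearts were perfused and dissociated, atria were taken off, myocytes were pelleted away and live cells negative for 7-AAD, a dye that enters dead cells, were sorted, so myocytes as a source of these transcripts were not analysed here. The comparisons are between cell classes set by marker counts: fibroblasts (at least 5 UMIs of Dcn), mural cells, meaning pericytes and related vessel-wall cells (at least 4 UMIs of Rgs5, Kcnj8 and Vtn together), endothelium (at least 2 UMIs of Pecam1, Cdh5 and Egfl7) and macrophages (at least 15 UMIs of C1qa, C1qb and C1qc). UMIs are tags put on RNA molecules at capture, so that copies of a molecule count once. CPM is the number of UMIs of a gene per 1000000 UMIs in the summed cells of a class in a mouse.

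Col4a1 (chr8:11198423-11312826, minus strand, GRCm38) and Col4a2 (chr8:11312805-11449287, plus strand) lie head to head. Their promoter windows from RefSeq (GRCm38.p6), each running from 250 bases before to 50 after the annotated start, are shown because the 2 genes had similar profiles over the cell groups and because these windows are partly the same DNA. The annotated starts are 21 bases apart, and the windows share 78 bases, printed in capitals and read from opposite strands. The first window is chr8:11312777-11313076 on the minus strand and the second is chr8:11312555-11312854 on the plus strand.
Col4a1: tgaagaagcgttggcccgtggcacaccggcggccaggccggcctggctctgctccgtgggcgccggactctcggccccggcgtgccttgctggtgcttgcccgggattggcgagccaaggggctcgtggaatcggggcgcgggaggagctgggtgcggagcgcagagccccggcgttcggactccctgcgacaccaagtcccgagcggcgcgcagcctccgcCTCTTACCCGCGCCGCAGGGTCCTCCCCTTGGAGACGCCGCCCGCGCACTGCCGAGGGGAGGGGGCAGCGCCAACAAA
Col4a2: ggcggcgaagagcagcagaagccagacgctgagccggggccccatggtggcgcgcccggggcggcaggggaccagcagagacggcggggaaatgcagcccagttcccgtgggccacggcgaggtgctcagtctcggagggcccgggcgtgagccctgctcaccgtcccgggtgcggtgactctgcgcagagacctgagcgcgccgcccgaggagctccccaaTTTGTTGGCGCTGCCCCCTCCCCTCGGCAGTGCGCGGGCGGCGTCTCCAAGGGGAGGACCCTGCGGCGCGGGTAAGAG
The shared bases hold 1 GC box (GGGCGG) and 1 CTC box (CCCTCCCC), searched on both strands, and no CCAAT or TATAAA. Over all 32851 RefSeq promoter windows of this length, 35.7% hold a GC box, 10.8% the CTC box, 37.4% CCAAT and 13.6% TATAAA. Of the 10 genes, 8 had a window in the RefSeq table. TATAAA was in none of the windows of those 8, and Nid1 was the other gene with the CTC box. A match is a description of the letters and no test of binding.

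The tables held 21355383 UMIs in 7732 cells for mouse 1 and 15174548 in 6367 for mouse 2. After filters, 6608 cells of mouse 1 and 5687 of mouse 2 remained, with medians of 2542.5 and 2194 UMIs. Fibroblasts numbered 1860 and 1303, mural cells 63 and 42, endothelial cells 929 and 1269, and macrophages 2997 and 2361. Cells past several gates, 188 and 130, were left out, among them 44 of 116 and 36 of 85 cells past the mural gate that were also past the endothelial gate. Summed UMIs ran from 55838 (mural cells, mouse 2) to 9239668 (macrophages, mouse 1), so mural values carry the widest counting error. Defining markers not used in the gates were compared with the mean of the other classes. All 10 fibroblast, all 8 mural, all 8 macrophage and 7 of 8 endothelial genes were more than 3-fold above that mean in both mice. A single class could lie closer. Tcf21, a fibroblast marker, had 249 CPM in fibroblasts and 133 CPM in mural cells of mouse 1. The 8 endothelial markers summed to 1064 and 1254 CPM in mural cells, against 3398 and 3958 CPM in endothelium. Lymphatic markers summed to 541 and 1723 CPM within endothelium, which was not split by them. The libraries shared 65 cell barcodes. At the edge of the endothelial gate, cells with exactly 2 gate UMIs (197 and 237) had 482.5 and 428 CPM of Col4a1, and cells with 1, which were outside it (170 and 185), had 276 and 362 CPM. The mural gate had 1 cell of each mouse just inside it and 6 and 4 just outside.

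Col4a1 stood at like levels in fibroblasts, mural cells and endothelium, while Col4a2 was lower in fibroblasts than in mural cells and endothelium. Both collagen IV chains were far lower in macrophages. Col4a1 had 615 and 494 CPM in fibroblasts of mouse 1 and mouse 2, 632 and 484 CPM in mural cells, 547 and 526 CPM in endothelium and 13.9 and 7.90 CPM in macrophages. The mice overlapped across the first 3 classes, and the class means differed from their neighbours by 1.01-fold and 1.03-fold. Col4a2 had 212 and 155 CPM in fibroblasts, 332.5 and 215 CPM in mural cells, 288 and 265 CPM in endothelium and 11.3 and 9.27 CPM in macrophages. Its mural and endothelial levels overlapped, and both fibroblast values lay below them.

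**Figure D1:**
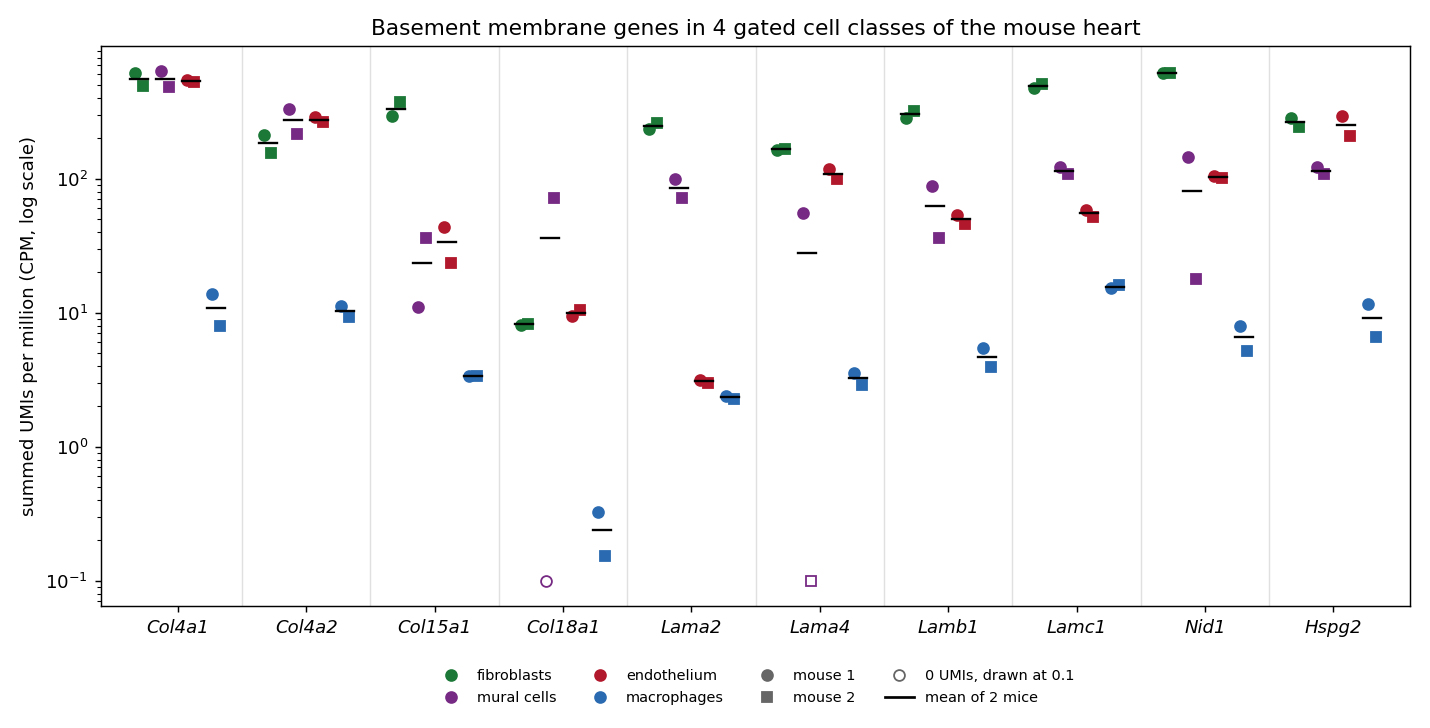
Level of each gene, in CPM on a log scale, in fibroblasts, mural cells, endothelium and macrophages of each mouse, with the mean of both mice as a bar and 0 UMIs drawn as an open symbol at 0.1. Col4a1 lies between 484 and 632 CPM in 3 classes, and Lama2 is at 236 and 261 CPM in fibroblasts, against 3.15 and 2.97 CPM in endothelium.

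The laminin chains were spread unevenly. Lamc1 (chr1:153218922-153332786), the gamma chain shared by most laminins of vessels and muscle, had 478 and 511 CPM in fibroblasts, 122 and 107 CPM in mural cells, 58.7 and 51.5 CPM in endothelium and 15.4 and 16.0 CPM in macrophages. Lamb1 (chr12:31265234-31329644) had 284 and 322 CPM in fibroblasts, 88.7 and 35.8 CPM in mural cells, 53.6 and 45.6 CPM in endothelium and 5.41 and 3.95 CPM in macrophages. Both chains were highest in fibroblasts, and neither fibroblast value overlapped another class.

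The 2 alpha chains parted between classes. Lama2 (chr10:26980036-27619758), the alpha chain of muscle laminin, whose loss causes muscular dystrophy in humans and mice, had 236 and 261 CPM in fibroblasts, 99.8 and 71.6 CPM in mural cells, 3.15 and 2.97 CPM in endothelium and 2.38 and 2.28 CPM in macrophages. Lama4 (chr10:38965515-39110188), the alpha chain typical of endothelial basement membrane, had 165 and 168 CPM in fibroblasts, 55.4 and 0 CPM in mural cells, 117 and 98.6 CPM in endothelium and 3.57 and 2.89 CPM in macrophages. The mural value of Lama4 rests on 5 UMIs in mouse 1 and 0 in mouse 2. Endothelial Lama2 was 1.34% and 1.14% of the fibroblast level, and the 10 fibroblast markers in endothelium had medians of 1.20% and 1.02% of theirs. Where the endothelial Lama2 UMIs come from was not tested.

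Nid1 (chr13:13437551-13512269), which bridges laminin gamma-1 and collagen IV, had 617 and 613.5 CPM in fibroblasts, with 144 and 17.9 CPM in mural cells, 104 and 101 CPM in endothelium and 7.90 and 5.17 CPM in macrophages. Its mural counts were 13 UMIs in mouse 1 and 1 in mouse 2, and they overlapped the endothelial level. Hspg2 (chr4:137468769-137570630) had 281 and 244 CPM in fibroblasts, 122 and 107 CPM in mural cells, 295 and 209 CPM in endothelium and 11.6 and 6.53 CPM in macrophages. Fibroblast and endothelial values of Hspg2 overlapped, and the mural ones lay below both.

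Col15a1 (chr4:47208161-47313167) had 292 and 372 CPM in fibroblasts, 11.1 and 35.8 CPM in mural cells, 43.5 and 23.3 CPM in endothelium and 3.35 and 3.34 CPM in macrophages. Col18a1 (chr10:77052178-77166548), whose C-terminal fragment is endostatin, had the fewest UMIs of the 10 genes over the 4 classes together, with 8.14 and 8.18 CPM in fibroblasts, 9.46 and 10.4 CPM in endothelium and 0.325 and 0.152 CPM in macrophages. In mural cells it had 0 UMIs in mouse 1 and 4 in mouse 2, and all 4 came from 1 cell that passed the mural gate with exactly 4 marker UMIs.

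The shares of cells with a UMI were compared after each cell was thinned to 1000 UMIs. Col4a1 was found in 44.9% and 37.5% of fibroblasts, 49.1% and 44.8% of mural cells, 37.6% and 36.6% of endothelial cells and 1.14% and 0.519% of macrophages. Nid1 was found in 44.8% and 45.1% of fibroblasts, 5.45% and 3.45% of mural cells, 9.79% and 9.79% of endothelial cells and 0.669% and 0.605% of macrophages. Lama2 was found in 20.6% and 23.8% of fibroblasts, 9.09% and 6.90% of mural cells, 0.456% and 0.369% of endothelial cells and 0.268% and 0.346% of macrophages, so its endothelial share was close to that in macrophages. Before thinning the median depth was 1463 and 1410 UMIs in endothelium and 2845 and 2616 in macrophages. At least 1 of the 10 genes was found in 94.4% and 93.0% of fibroblasts, 78.2% and 65.5% of mural cells, 72.8% and 67.6% of endothelial cells and 6.93% and 6.01% of macrophages. Before thinning, 75.7% of fibroblasts of mouse 1 held a Col4a1 UMI. Thinning left out 13 and 40 fibroblasts, 8 and 13 mural cells, 51 and 186 endothelial cells and 9 and 48 macrophages.

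**Figure D2:**
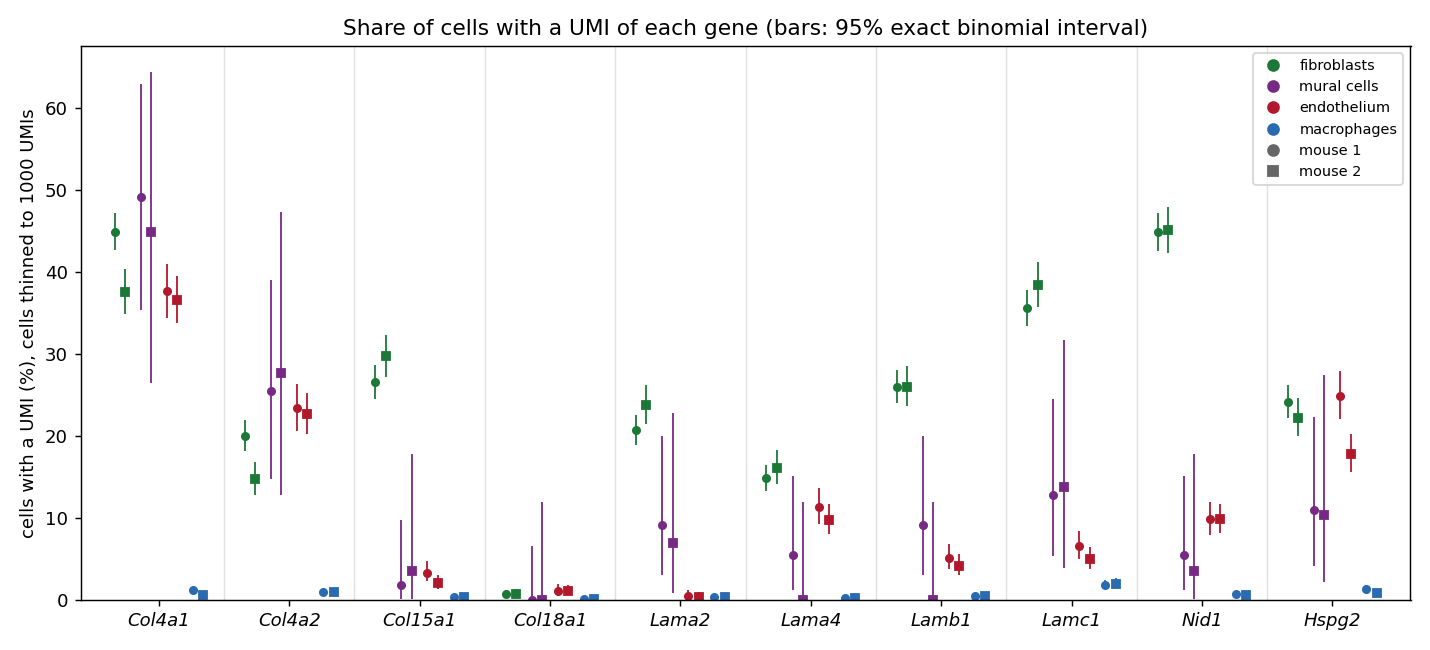
Percent of cells with a UMI of each gene after thinning to 1000 UMIs, by class and mouse, with exact binomial (Clopper-Pearson) 95% intervals that cover counting error only. Fibroblasts reach 44.8% and 45.1% for Nid1, against 9.79% in endothelium of each mouse, and macrophages reach at most 1.95%, for Lamc1.

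Fibroblasts against endothelium was tested in a fit of the class sums of both mice. A gene was called when its adjusted p, from edgeR's quasi-likelihood test with Benjamini-Hochberg adjustment over all genes, was under 0.05 and its log2 fold change was at least 1 in size. Of the 10 genes, 5 were called higher in fibroblasts and 0 lower, where 16.4% of all 11683 genes tested were called higher and 30.8% in either direction. The called genes were Lama2, Col15a1, Lamc1, Lamb1 and Nid1. Lama2 was higher by 6.38 ± 0.26 on the log2 scale (SE, n = 2 mice; edgeR adjusted p = 3.13e-18), although its size depends on a low endothelial level, from 5 and 6 UMIs. Col15a1 was higher by 3.40 ± 0.21 and Lamc1 by 3.23 ± 0.16 (edgeR adjusted p = 3.97e-14 and 3.87e-16). Lamb1 and Nid1 were higher by 2.67 ± 0.17 and 2.64 ± 0.18 (edgeR adjusted p = 1.72e-13 and 3.15e-13).

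The other 5 genes stood closer together. Lama4 (0.68 ± 0.17, edgeR adjusted p = 0.00115) and Col4a2 (-0.55 ± 0.14, edgeR adjusted p = 0.00253) passed the p threshold in opposite directions but not the fold threshold. Col4a1 differed by 0.09 ± 0.14, Hspg2 by 0.13 ± 0.14 and Col18a1 by -0.21 ± 0.43, none of them past the threshold (edgeR adjusted p = 0.657, 0.486 and 0.729). The median log2 fold change of the 10 genes was 1.66, beside 0.03 over all genes tested.

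Mural cells differed from endothelium in 3 of the 10 genes and from fibroblasts in 7. Against endothelium, Lama2 was called higher (4.44 ± 0.60, edgeR adjusted p = 2.22e-06) and Lama4 and Hspg2 lower (-2.09 ± 0.52 and -1.56 ± 0.31, edgeR adjusted p = 0.00577 and 0.000463), where 4.55% of genes were called higher, 7.28% lower and 11.8% in either direction. Mural Lama2 rests on 9 and 4 UMIs, at 42.4% and 27.4% of the fibroblast level. The 10 fibroblast markers in mural cells had medians of 7.29% and 5.17% of theirs and reached 53.35% and 18.7%. The part of fibroblast RNA in the mural Lama2 level was not tested. Against fibroblasts, 7 of the 10 genes were called lower and 0 higher, where 7.17% of genes were called lower, 4.03% higher and 11.2% in either direction. They were Col15a1 (-4.47 ± 0.52), Nid1 (-3.19 ± 0.33), Lama4 (-2.77 ± 0.48), Lamb1 (-2.63 ± 0.35), Lamc1 (-2.56 ± 0.27), Lama2 (-1.94 ± 0.32) and Hspg2 (-1.70 ± 0.30), with edgeR adjusted p-values of at most 0.000129. The median of all genes was -0.39 against endothelium and -0.40 against fibroblasts, and Col4a1 (-0.37 ± 0.20 and -0.46 ± 0.20) lay beside these medians. Lama4 and Hspg2 lost their calls against endothelium, and Hspg2 against fibroblasts, when cells past several gates were kept in each class they passed, and Lama4 also lost it with DESeq2.

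**Figure D3:**
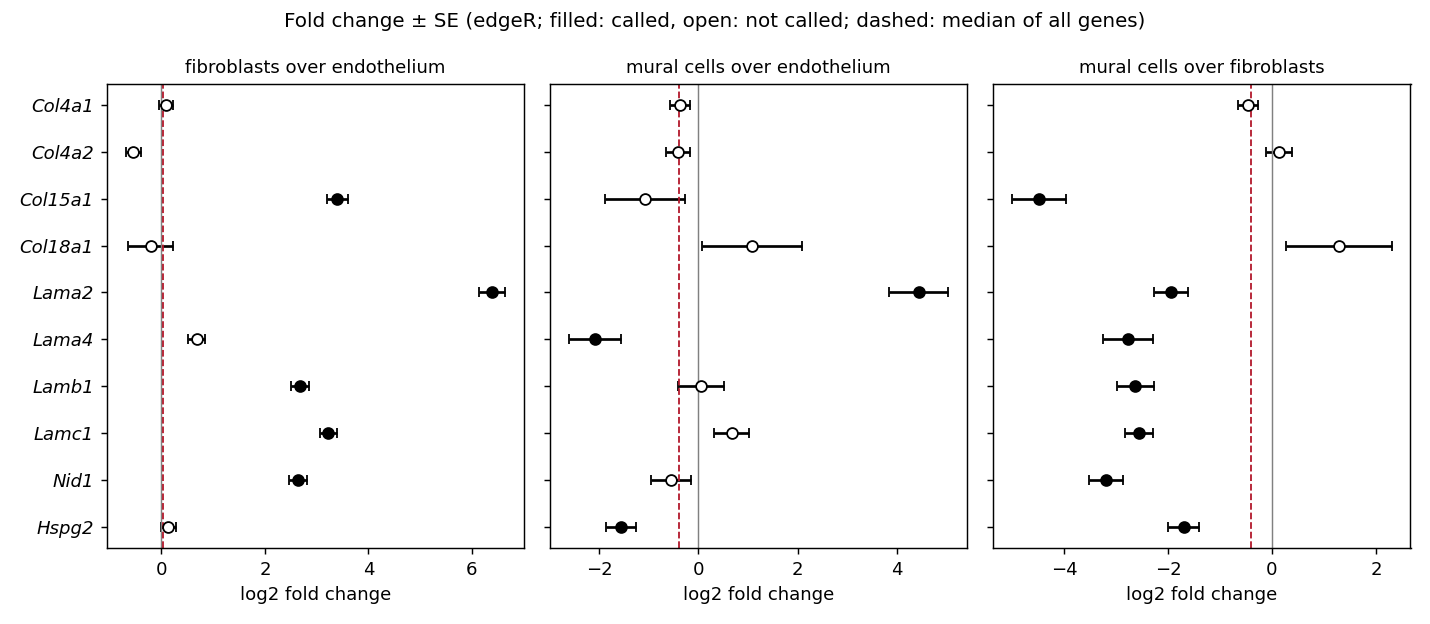
Log2 fold change ± SE from edgeR for the 10 genes in fibroblasts over endothelium, mural cells over endothelium and mural cells over fibroblasts, with called genes filled and the median of all genes dashed. Lama2 is at 6.38 and 4.44 in the first and second panels, while Col4a1 lies close to the dashed line in all 3.

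The cells that passed exactly the mural and endothelial gates, 38 and 36, had 549 and 594 CPM of Col4a1 and 121 and 116 CPM of Lama4, with 9.31 and 38.8 CPM of Lama2. What these cells are was not tested.

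Macrophages were low for every gene. Fibroblasts were called higher than macrophages for all 10 genes, where 20.0% of genes were called higher and 37.8% in either direction. Endothelium was called higher for 9, all but Lama2 (-0.04 ± 0.45, edgeR adjusted p = 0.957), where 16.8% were called higher and 33.3% in either direction. Mural cells were called higher for 9, all but Col15a1 (1.78 ± 1.07, edgeR adjusted p = 0.262), where 9.12% were called higher and 22.6% in either direction. The call for Col18a1 rests on the 1 cell named above, and those for Lama4, Nid1, Hspg2 and Col18a1 were each lost under at least 1 alternative. The 10 fibroblast markers in macrophages were between 0.641% and 1.51% of their fibroblast level in mouse 1 and between 0.378% and 1.53% in mouse 2. Lama2 was within that range, at 1.01% and 0.873%. Col15a1 and Nid1 were within it too, and Lamb1 was above it in mouse 1 alone (1.91%). The other 6 genes were above it in both mice. Col4a2 was at 5.31% and 5.99% of its fibroblast level, Lamc1 at 3.22% and 3.13%, Hspg2 at 4.12% and 2.68% and Col18a1, from few UMIs, at 3.99% and 1.86%. Col4a1, at 2.25% and 1.60%, and Lama4, at 2.17% and 1.72%, were closer to the range. This range is set by fibroblast markers alone, and all 6 genes were also found in endothelium. Endothelial markers in macrophages were between 0.667% and 1.588% of their endothelial level in mouse 1. In mouse 2 they were between 0.5162% and 1.899%. Against their own endothelial levels, Col4a1 and Col18a1 were within the endothelial range in mouse 2, and otherwise all 6 genes were above it. A joint range for fibroblasts and endothelium was not taken. Of the 34 and 12 thinned macrophages with a Col4a1 UMI, 0 had a Col4a2 UMI. Of those without Col4a1, only 0.948% and 0.956% had Col4a2, so a count of 0 in so few cells cannot show a difference. Where the macrophage UMIs of these 6 genes come from was not tested.

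Within endothelium, cells with at least 2 UMIs of Npr3 and Cytl1, genes of the endocardium that lines the heart chambers, numbered 38 and 40. Their other endocardial markers summed to 3951 and 3531 CPM, against 158 and 125 CPM in other endothelium. Col4a1 had 151 and 91.9 CPM in them (10 and 7 UMIs), against 571 and 548 CPM in other endothelium. Col4a2 had 60.6 and 26.2 CPM (4 and 2 UMIs), against 300 and 276 CPM. Hspg2 had 212 and 144 CPM (14 and 11 UMIs), against 302 and 212 CPM. The counting intervals of the collagen IV chains did not reach the other endothelium in either mouse, while those of Hspg2 did.

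In the fit of 3 endothelial groups, 3 of the 10 genes passed the filter on low counts. Col4a1 was lower in the Npr3+Cytl1 cells by -2.24 ± 0.30 and Col4a2 by -2.78 ± 0.44 on the log2 scale (edgeR adjusted p = 1.72e-06 and 2.25e-05), and both were called, where 9.73% of the 1613 genes tested were called lower, 9.11% higher and 18.8% in either direction. Hspg2 differed by -0.55 ± 0.31 and was not called (edgeR adjusted p = 0.222). Another 17 and 34 cells with these markers also passed the Dcn gate and had been left out. With them included, the cells past the endothelial and Npr3+Cytl1 gates numbered 55 and 74 and had 184 and 80.8 CPM of Col4a1 and 254 and 236.5 CPM of Hspg2. Lama4, which the filter left out of the test, had 121 and 91.9 CPM in the Npr3+Cytl1 cells (8 and 7 UMIs), against 118 and 100.1 CPM in other endothelium. Of other matrix genes, Sparc, a collagen IV-binding protein, was called lower in them (-2.11 ± 0.20, 590 and 433 CPM against 2170 and 2166 CPM) and Bgn, the small proteoglycan biglycan, higher (3.52 ± 0.26, 696 and 840 CPM against 81.6 and 53.5 CPM; edgeR adjusted p = 8.39e-09 and 7.24e-11). Fibroblast markers summed to 1181 and 801 CPM in the Npr3+Cytl1 cells, against 438 and 413 CPM in other endothelium, and their part in these values was not tested.

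The Gja5+Gja4+Sema3g group, with markers of arterial endothelium, held 14 and 20 cells. Col4a1 had 192 and 257 CPM there (4 and 9 UMIs), against 571 and 548 CPM in other endothelium. It was called lower (-1.35 ± 0.36, edgeR adjusted p = 0.0261), where 1.74% of genes were called lower, 2.73% higher and 4.46% in either direction, but 6 of the 9 alternative analyses that gave a test lost this call. Among those 6, the fold was -1.37 with DESeq2 and without the block and -2.83 with stricter gates, which left 1 cell of this group in each mouse. It was -0.91 with thinned cells, -0.48 with looser gates and -0.30 with cells past several gates kept. Col4a2 (-0.76 ± 0.44) and Hspg2 (-0.88 ± 0.48) were not called (edgeR adjusted p = 0.423 and 0.403). Col18a1 had 96.2 and 142.5 CPM in this group from 2 and 5 UMIs, against 8.70 and 8.39 CPM in other endothelium from 13 and 16 UMIs, and it did not pass the filter for a test. Its interval in mouse 2 runs from 46.3 to 332.5 CPM, above the 4.79 to 13.6 CPM of other endothelium, while in mouse 1 the intervals, from 11.65 CPM upwards and up to 14.9 CPM, overlap. Between the Npr3+Cytl1 and the Gja5+Gja4+Sema3g cells 0 of the 3 tested genes were called, where 13.1% of genes were called, 5.83% higher and 7.32% lower, and DESeq2 also called 0. The unadjusted p passed 0.05 for 1 gene, Col4a2 (-2.02 ± 0.72, edgeR adjusted p = 0.0598), and the share of all genes at that threshold was not taken. With cells past several gates kept Col4a1 (-1.79) and Col4a2 (-2.57) were called, as they were with looser gates (-1.18 and -1.62). In these settings 296 of 2999 and 254 of 2271 genes were called.

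**Figure D4:**
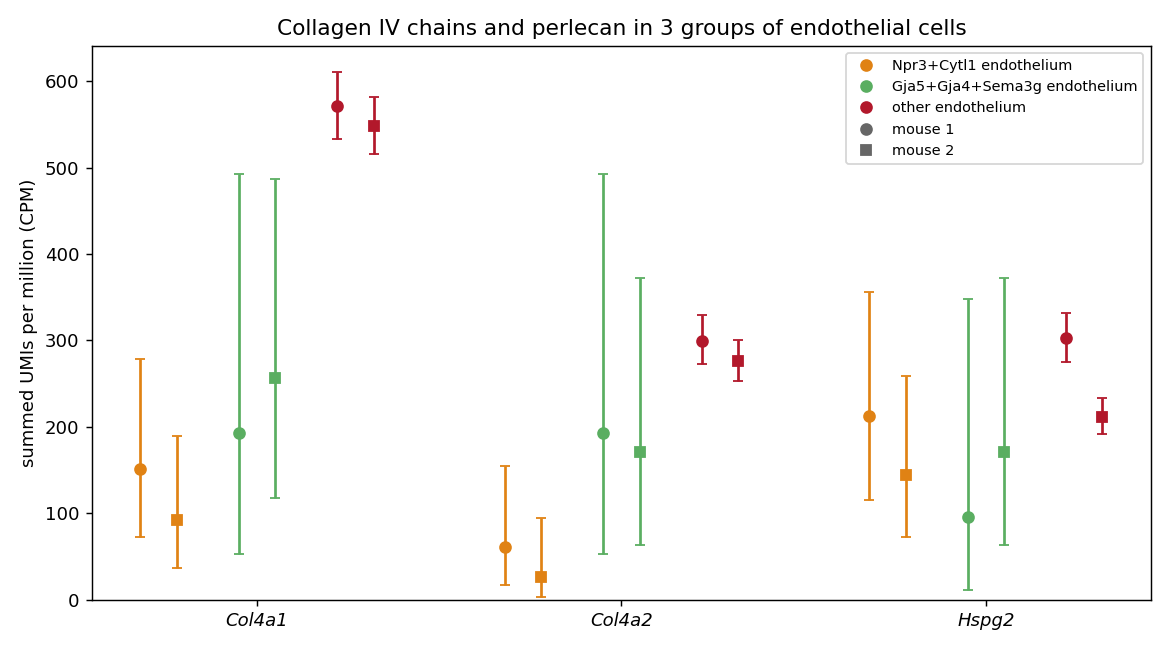
Level of Col4a1, Col4a2 and Hspg2 in CPM in the Npr3+Cytl1, Gja5+Gja4+Sema3g and other endothelial cells of each mouse, with exact Poisson 95% intervals for counting error. The Npr3+Cytl1 cells lie at 151 and 91.9 CPM for Col4a1, against 571 and 548 CPM in other endothelium.

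Fibroblasts were also split by marker counts. Cells with at least 2 UMIs of Pi16 and Cd248, markers of adventitial fibroblasts, numbered 1009 and 543. Between them and other fibroblasts 0 of the 10 genes were called, where 2.07% of 9499 genes were called, 0.947% higher and 1.13% lower. Without the fold threshold 2 genes passed, Lamc1 higher (0.38 ± 0.12, edgeR adjusted p = 0.0443) and Col4a2 lower (-0.39 ± 0.12, edgeR adjusted p = 0.0286). Lamc1 had 527 and 581 CPM in the Pi16+Cd248 cells and 400.5 and 443 CPM in other fibroblasts, with no overlap between the groups. At an unadjusted p under 0.05 edgeR gave 4 of the 10. The shares of all genes without the fold threshold and at an unadjusted p were not taken, so the counts of 2 and 4 have no background beside them. DESeq2 called 0 of the 10 genes and 43 of all 9499. Fibroblasts with at least 2 UMIs of Cilp, Postn and Thbs4 numbered 15 and 2, too few to read. Of the 10 genes 0 were called, where 0.358% of all genes were, 0.147% higher and 0.211% lower. The unadjusted p of edgeR was under 0.05 for 1 of the 10, again with no share of all genes at that threshold. DESeq2 called 0 of the 10 genes and 16 of all 9499.

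The relation between partner chains differed between fibroblasts and endothelium. The ratio of Col4a1 to Col4a2 UMIs was 2.90 and 3.19 in fibroblasts, with 95% counting intervals of 2.71 to 3.11 and 2.88 to 3.53. In endothelium it was 1.90 and 1.99, with intervals of 1.70 to 2.13 and 1.79 to 2.21, so it was lower there in both mice. Since 3' capture can differ between transcripts, the ratio is compared between classes and not read as a chain stoichiometry. Both classes come from the same 2 mice, and a 2-sided exact permutation test that swaps them within a mouse cannot go below p = 0.5.

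Lama2 to Lama4 was 1.43 and 1.56 in fibroblasts, against 0.0269 and 0.0302 in endothelium. Lama4 to Lamc1 was 0.345 and 0.328 in fibroblasts, against 2.00 and 1.91 in endothelium, and Hspg2 to Lamc1 was 0.589 and 0.478, against 5.03 and 4.05. Lamb1 to Lamc1 moved less, at 0.594 and 0.631 in fibroblasts and 0.914 and 0.885 in endothelium, and in mouse 2 the intervals overlapped (0.584 to 0.682 in fibroblasts, 0.661 to 1.18 in endothelium).

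**Figure D5:**
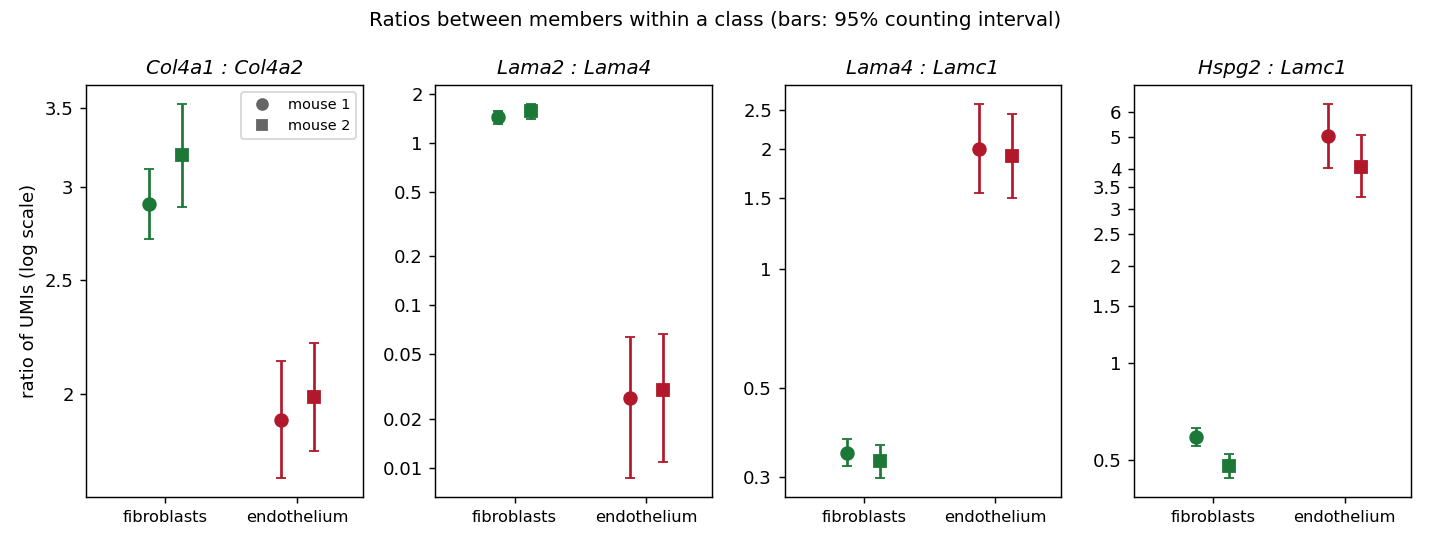
Ratio of UMIs between partner genes in fibroblasts and endothelium of each mouse, on log scales that differ between panels, with 95% intervals for counting error. Col4a1 to Col4a2 is 2.90 and 3.19 in fibroblasts, against 1.90 and 1.99 in endothelium.

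Among thinned cells, the share with a Col4a2 UMI was compared between cells with and without Col4a1. In endothelium 29.7% and 27.0% of cells with Col4a1 also had Col4a2, against 19.5% and 20.1% of cells without it. In fibroblasts the shares were 22.0% and 18.8%, against 18.4% and 12.3%. For Nid1 with Lamc1 in fibroblasts they were 37.7% and 41.3%, against 33.9% and 36.0%. In endothelium this pair went the other way, with Lamc1 in 3.49% and 0% of cells with Nid1 (3 of 86 and 0 of 106), against 6.82% and 5.53% of cells without it. These are descriptions over cells of the same libraries, with no test.

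Fibroblasts held 94.8% and 94.5% of all Lama2 UMIs in the kept cells, 90.2% and 91.8% of Col15a1, 88.9% and 86.4% of Nid1 and 87.3% and 84.8% of Lamc1, while holding 29.3% and 24.5% of all UMIs. For Col4a2 the share was 58.4% and 41.5%. Such shares move with how many cells of each class were recovered and do not estimate the makeup of the tissue.

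Between the mice, Col4a1 and Col4a2 were higher in fibroblasts of mouse 1 (1.25-fold, interval 1.17 to 1.32, and 1.37-fold, 1.23 to 1.52), and Col15a1 was lower (0.786-fold, 0.729 to 0.848). In endothelium Hspg2 was higher in mouse 1 (1.42-fold, 1.24 to 1.62), as was Col15a1 (1.87-fold, 1.27 to 2.77). These intervals cover counting error, and the mice are replicates of 1 group.

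Other basement membrane genes were read from 4 lists. Of 29 further components, 20 could be tested between fibroblasts and endothelium, with 10 called higher and 4 lower, where 16.4% of all genes were called higher and 14.4% lower. Their median log2 fold change was 1.06 beside 0.03 for all genes. Smoc2, a calcium-binding matricellular protein, was higher in fibroblasts (7.06 ± 0.22; 1034 and 1315 CPM against 6.94 and 10.9 CPM), as was Fbln1, which encodes fibulin-1 (6.69 ± 0.22). Tinagl1, a laminin-binding secreted protein, was lower (-7.18 ± 0.26; 6.06 and 3.94 CPM against 953 and 604 CPM). Egflam, which encodes the dystroglycan ligand pikachurin, was higher in mural cells than in endothelium (5.76 ± 0.89; 88.7 and 107 CPM against 0.631 and 1.98 CPM) and than in fibroblasts (4.67 ± 0.76; 2.27 and 3.33 CPM in fibroblasts). All of these were called by edgeR with adjusted p of at most 3.46e-05.

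Named after their values were seen, Lama5, Lamb2 and Nid2 complete the chains at hand. Lama5 was lower in fibroblasts than in endothelium (-3.87 ± 0.59, edgeR adjusted p = 3.08e-06), at 0.757 and 0.909 CPM against 12.0 and 14.4 CPM. Lamb2 had 121 and 95.4 CPM in fibroblasts, 77.6 and 125 CPM in mural cells and 63.7 and 60.0 CPM in endothelium. Nid2 had 36.5 and 37.9 CPM in fibroblasts and 27.8 and 22.3 CPM in endothelium, with 0 UMIs in mural cells, a count that allows up to 20.5 CPM.

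Of 18 receptors, 14 were tested between fibroblasts and endothelium, with 4 called higher and 5 lower (median 0.33), beside the same 16.4% and 14.4% of all genes. Itga6, the alpha-6 subunit of laminin-binding integrins, was lower in fibroblasts (-7.52 ± 0.29; 0.947 and 1.51 CPM against 234 and 228 CPM), as were Itga1, of a collagen-binding integrin (-3.50 ± 0.28), and Bcam, a laminin alpha-5 receptor (-4.19 ± 0.19). Sdc2, the heparan sulfate proteoglycan syndecan-2, and Ddr2, a collagen-activated receptor kinase, were higher in fibroblasts (6.41 ± 0.24 and 3.74 ± 0.27). Itga7, another laminin-binding integrin subunit, had 133 and 179 CPM in mural cells, against 1.14 and 3.64 CPM in fibroblasts (5.67 ± 0.70). All were called by edgeR with adjusted p of at most 6.34e-07. Between mural cells and fibroblasts 5 of 14 tested receptors were called higher and 3 lower, where 4.03% of all genes were called higher and 7.17% lower, with a median of 0.49 beside -0.40 for all genes.

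Of 22 folding and crosslinking genes, 20 were tested, with 11 called higher and 1 lower in fibroblasts than in endothelium (median 1.03), beside 16.4% and 14.4% of all genes. Loxl1, a lysyl oxidase that crosslinks matrix fibres, was higher (6.00 ± 0.24; 456 and 475 CPM against 7.57 and 7.43 CPM), and Plod1, a collagen lysyl hydroxylase, was lower (-1.29 ± 0.19; 61.7 and 70.9 CPM against 160 and 174 CPM). Of 16 proteases, 15 were tested, with 9 called higher and 2 lower (median 2.30), the lower ones a share near the 14.4% of all genes. Mmp2, a gelatinase that also cuts collagen IV, was higher in fibroblasts (6.05 ± 0.21; 469 and 633 CPM against 8.83 and 8.42 CPM), and Adamts9, a proteoglycan-cleaving protease, was lower (-4.33 ± 0.29; 5.68 and 1.82 CPM against 100.3 and 59.0 CPM). These 4 genes were called by edgeR with adjusted p of at most 1.21e-06.

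Likeness of profile was taken as Pearson's r of log2(CPM + 1) over 12 sums, those of fibroblasts, mural cells, macrophages and the 3 endothelial groups in each mouse, among 3285 genes with a mean of at least 50 CPM. The genes most like Col4a1 were Tuba1a (r = 0.969), Serpinh1, the collagen chaperone HSP47 (r = 0.968), and Sparc (r = 0.963). For Col4a2 they were Sparcl1 (r = 0.976), 4930523C07Rik (r = 0.970) and Col4a1 itself (r = 0.958). Lama2 was most like C1s1 (r = 0.996), Sdc2 (r = 0.991) and Angptl2 (r = 0.979), and Lama4 was most like Fmo2 (r = 0.970), Csf1 (r = 0.956) and Dpysl3 (r = 0.926). The first genes for the others were Abca8a for Col15a1 (r = 0.926), Mrpl4 for Col18a1 (r = 0.915), Adm for Lamb1 (r = 0.958), Tmed9 for Lamc1 (r = 0.898), Tbrg1 for Nid1 (r = 0.959) and Slc43a3 for Hspg2 (r = 0.968). The sums share 2 libraries and 3 of the groups hold at most 63 cells in a mouse, so these values describe the profiles only.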

How the data were processed

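The authors deposited, for each mouse, a table of UMI counts with gene symbols in rows and barcodes in columns, without normalization. Per the submitters' processing notes, FastQC and Cell Ranger 2.2.0 were used with the build mm10, and how barcodes were chosen is not given in the sources used here. Cells were kept with at least 500 UMIs, 300 genes and at most 10% mitochondrial UMIs. Scrublet (scanpy 1.11.5), run per mouse, removed 405 and 248 doublets. Cells past more than 1 main gate were left out, and counts were summed per group and mouse. edgeR 4.0.16 (TMM scaling, filterByExpr, quasi-likelihood F test) was fitted to all genes with the mouse as a block, since the groups come from the same animals. The fit of 4 classes left 3 residual degrees of freedom and those of endothelial and fibroblast groups 2. It was tested on simulated data. DESeq2 1.42.0 was an alternative. SE is the fold change divided by the square root of F. Of list genes, the text draws on those with the largest called folds, at most 4 per list and direction, whose higher class reached 50 CPM in both mice. The genes and lists were chosen with earlier results of these data known. Gene positions are from GENCODE vM21. Intervals and floors (3 UMIs for a count of 0) cover counting error only.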

Additional observations from a re-analysis of the deposited data

How the results depend on the processing

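Of 974 recomputed log2 fold changes of the 10 genes, 839 either kept their direction and their side of the threshold in a test or, with a mouse left out, moved by less than the spread between mice. Another 92, all with a mouse left out, moved by more, 16 lost a call, 5 gained one and 22 changed sign, whatever the size of the change. A value with a mouse left out is a ratio from the remaining mouse, with 0.5 added to both sides, and not a fit. Its distance from the main value is also tied to the spread between mice by which it is judged. With a mouse left out, these labels therefore do not measure how far a result depends on a mouse. All 5 calls of fibroblasts over endothelium and both calls of the Npr3+Cytl1 cells over other endothelium held under every alternative that gave a test: DESeq2, RLE scaling, no filter on low counts, no replicate block, no doublet removal, cells past several gates kept, stricter and looser gates and thinned cells. Without the replicate block, 7 genes were still called lower in mural cells than in fibroblasts, where 1105 of all 11683 genes were called in either direction. The calls of Col4a1 in the Gja5+Gja4+Sema3g cells (-1.37) and of Lama4 in mural cells over macrophages (2.54) were lost without the block, and it changed no other call of the 10 genes. The Col4a1 call was also lost with DESeq2, with cells past several gates kept, with stricter gates, with looser gates and with thinned cells (0 genes each). Leaving out a mouse gives values with no test, counted by fold alone.

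Over endothelium, mural cells had 1 called gene with cells past several gates kept, against 3, and 4 to 5 leaving out a mouse. Calls over all genes also fell with cells past several gates kept, to 358 of 11993 from 1383 of 11683. The Gja5+Gja4+Sema3g cells had 1 to 2 leaving out a mouse. For Npr3+Cytl1 over Gja5+Gja4+Sema3g cells the count was 2 with cells past several gates kept, 2 with looser gates and 1 to 2 leaving out a mouse. Over all genes, 296 of 2999 and 254 of 2271 were called in the first 2 settings, against 212 of 1613. By adjusted p alone the count was 2 for the Pi16+Cd248 fibroblasts. For the Cilp+Postn+Thbs4 fibroblasts it was 0 to 4 leaving out a mouse. With a mouse left out and by adjusted p alone, the share of all genes was not taken.

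Some log2 folds changed sign. With cells past several gates kept, they were Col4a1 (0.0617), Col15a1 (0.71) and Nid1 (0.41) in mural cells over endothelium, Lama2 in endothelium over macrophages (0.92), Hspg2 in Npr3+Cytl1 cells (0.067), Col4a2 in Gja5+Gja4+Sema3g cells (0.0137) and Col18a1 in Cilp+Postn+Thbs4 fibroblasts (1.76). With thinned cells, mural Col18a1 was at -6.55 over endothelium, -6.01 over fibroblasts and -2.97 over macrophages, fitted values at 0 UMIs that depend on the prior count, mural Col4a2 at -0.11 over fibroblasts, Lama2 at 0.0147 in endothelium over macrophages and Hspg2 at -0.28 in the Cilp+Postn+Thbs4 cells. With stricter gates, mural Col18a1 was at -0.93 over endothelium and -0.65 over fibroblasts, mural Lamb1 at -0.0009 over endothelium and Hspg2 at -0.43 in the Cilp+Postn+Thbs4 cells. Col4a1 was then at 0.54 in Npr3+Cytl1 over Gja5+Gja4+Sema3g cells, with 1 cell of the latter group left in each mouse. With looser gates, mural Lamb1 was at -0.16 over endothelium, Lama2 at 0.25 in endothelium over macrophages, Hspg2 at -0.12 in Npr3+Cytl1 over Gja5+Gja4+Sema3g cells and at -0.94 in the Cilp+Postn+Thbs4 cells. The cause was not tested. Mural calls over macrophages were lost for Nid1 and Hspg2 with looser gates, for Nid1 with thinned cells, for Lama4 with looser gates and for Col18a1 with stricter gates. The mural cells and the small endothelial groups are limited by their number of cells.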
